A study of Mus musculus with 9 samples.

Results

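The genes described here are Ptgds, which encodes lipocalin-type prostaglandin D synthase, and 7 further genes of prostaglandin synthesis and of the prostaglandin D2 receptor, measured in mouse hippocampus. The rule took every probe set that the platform annotation gives to 1 of 8 genes alone and that had a value on all 9 arrays. It found 8 probe sets of 7 genes, among 21959 probe sets tested and 16429 genes with a single symbol. Ptgds, Hpgds, Ptgdr, Ptgs2, Ptges and Ptges2 had 1 probe set each and Ptges3 had 2. Ptgs1, the constitutive cyclooxygenase, had 0 probe sets under that rule and was not analysed here. The lead gene Ptgds was selected on its measured green minus control difference in these scores, and the other genes were chosen by their place in its pathway with their values known, so the Ptgds values are given as a description with no test.

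Prostaglandins are short-lived lipid signals made from arachidonic acid, which phospholipases free from membranes. The cyclooxygenases Ptgs1 and Ptgs2 turn it into prostaglandin H2, and terminal synthases turn that into D2 (Ptgds, Hpgds), E2 (Ptges, Ptges2, Ptges3), F2 alpha, prostacyclin or thromboxane, each with receptors of its own. In brain, Ptgds is made mainly by the leptomeninges, the choroid plexus and oligodendrocytes, is secreted into the cerebrospinal fluid, and both makes prostaglandin D2, a sleep-promoting signal, and carries small hydrophobic molecules as a lipocalin. Ptgs2 is made in hippocampal neurons and follows their activity.

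The tissue came from male SAMP10/TaSlc mice, a strain bred for accelerated senescence with early brain ageing. All ate the CE-2 diet. Controls are labelled only as a control diet, and the other groups had 3.0% of an extract of yellow soybean or of green soybean, from 1 to 12 months of age. Each of these 3 diets had 3 arrays. The protocol text of every sample, controls included, mentions the extract, and the sample titles say SMP30 where the strain label says SAMP10; the group and strain labels were followed. Mice were kept in groups of 12 with 6 to a cage, and no label gives the cage of an array or says whether an array held RNA of a single mouse or a pool. The p-values therefore measure the spread between these arrays, which may be technical in part, and cage and diet cannot be told apart.

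The values are the deposited normalized scores, a z-type scale on which a difference of 0 means no change and whose logarithm base is not given in the sources used here. Differences are therefore given in score units and not as folds. For 1345 of the tested probe sets, Ptgds among them, the authors had set the control mean to 0, so the Ptgds score shows differences between arrays and no level. The scores of the other 7 member probe sets were not centred, and a score still does not allow the levels of different genes to be compared. All 15 listed markers of hippocampal pyramidal and granule neurons had a score on every array, with a list mean between 0.569 and 0.777 over the 9 arrays. Since scores do not give levels, this does not test the tissue label. Green soybean array 3 stood apart. Its mean correlation with the other arrays was 0.958 and that of the other 8 arrays was between 0.977 and 0.981, and it had the lowest mean score of the neuronal markers. The green minus control differences of the members, of the lists and of the list genes named below are also given without it. In these bulk samples, fewer cells of a type and less RNA per cell cannot be told apart.

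Ptgds was higher on the green soybean arrays than on the control arrays, by 0.569 score units on average. The control arrays had Ptgds scores of -0.0171, -0.0993 and 0.116, with a mean of 0 ± 0.109 (SD, n = 3). On the green soybean arrays the Ptgds scores were 0.657, 0.401 and 0.650, with a mean of 0.569 ± 0.146 (SD, n = 3). The yellow soybean arrays gave -0.110, -0.0490 and 0.679, with a mean of 0.173 ± 0.439 (SD, n = 3). All 3 green soybean arrays lay above all 3 control arrays, while the yellow soybean arrays split: array 1 was the lowest of all 9, array 2 lay among the controls, and array 3 was above every other array of the series.

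The order of the 9 arrays for Ptgds ran from yellow soybean 3 through green soybean 1, 3 and 2 to the 3 controls and the other yellow soybean arrays, which were interleaved. The largest step between neighbours in that order was 0.284, from 0.116 on control 3 to 0.401 on green soybean 2, with 5 arrays below it and 4 above. Being wholly above the controls was common in this comparison: 13.2% of all tested probe sets had every green soybean array above every control array. The size of the Ptgds difference was not common, since it exceeded that of 99.97% of the tested probe sets, a rank that the choice of Ptgds fixed. Without green soybean array 3 the green minus control difference was 0.529, and leaving out each array in turn gave 0.519 to 0.653.

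The yellow soybean value of Ptgds rested on 1 array. Array 3 exceeded the mean of the other yellow soybean arrays, -0.0797, by 0.759 score units. The range within the yellow soybean diet, 0.789, was larger than that of 99.9% of the tested probe sets, whose median range there was 0.124. Within the control diet the range was 0.216 and within the green soybean diet 0.256. These were larger than the ranges of 88.4% and 80.2% of the tested probe sets, whose median ranges there were 0.107 and 0.153. The yellow minus control difference of 0.173 became -0.0797 without yellow soybean 3, 0.315 without yellow soybean 1 and 0.284 without yellow soybean 2. The green minus yellow difference of 0.396 likewise became 0.649, 0.254 and 0.285 in turn, and 0.355 without green soybean 3. The Ptgds range within the yellow soybean diet was larger than the difference between any pair of diet means.

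**Figure D1:**
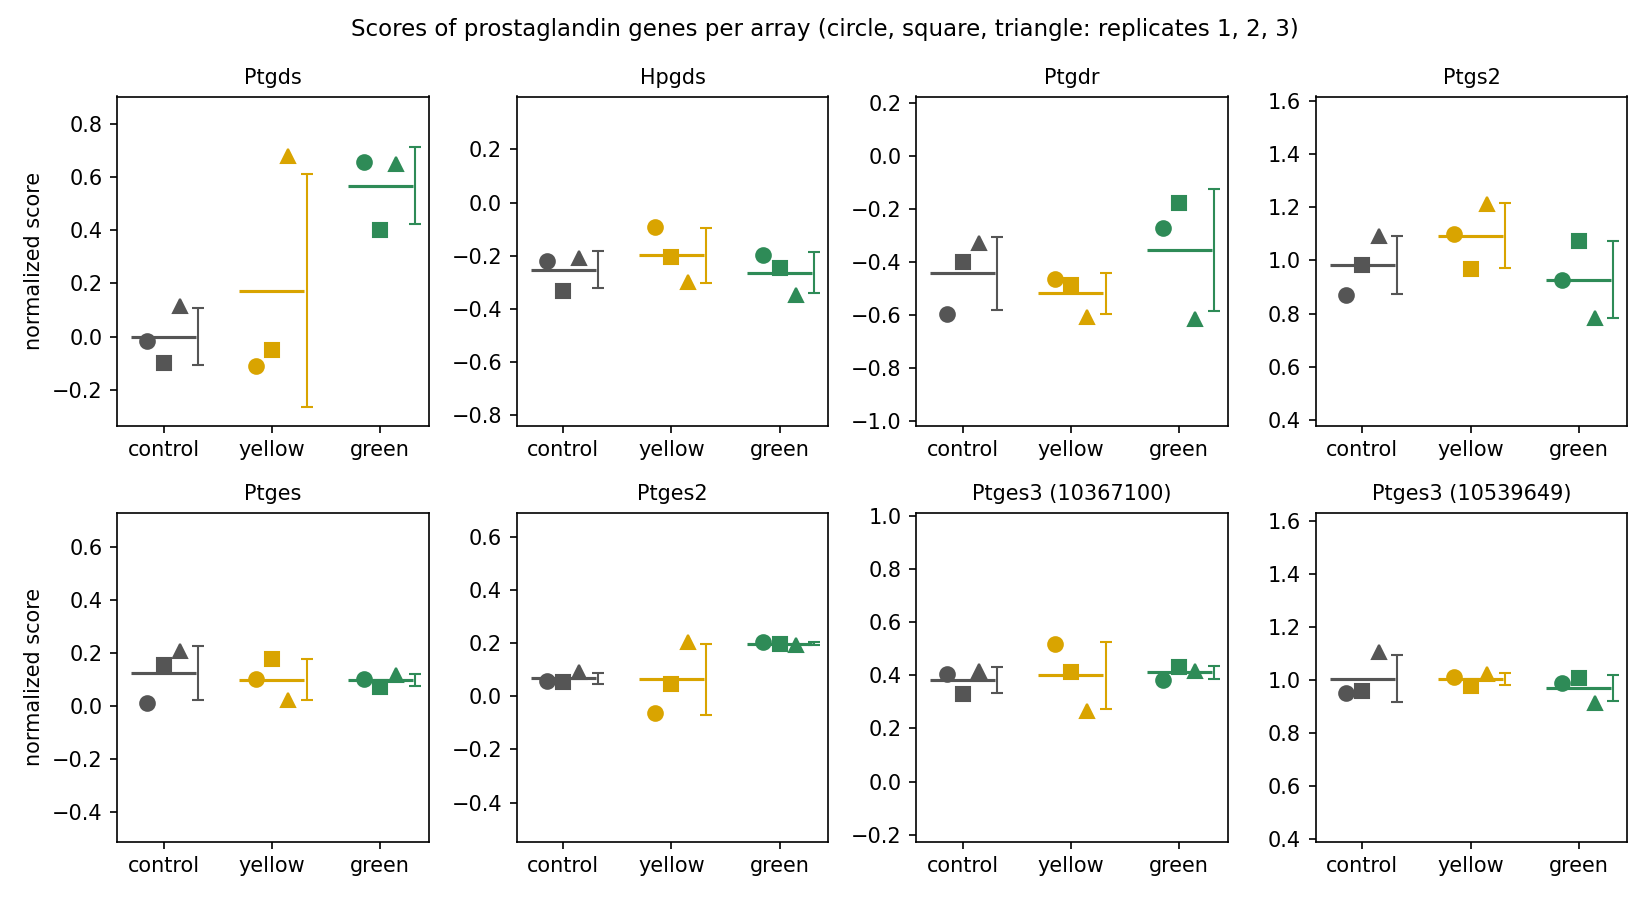
Deposited normalized score of each member probe set on each array, by diet, with circles, squares and triangles for replicates 1, 2 and 3, a horizontal line for the mean and bars for the SD (n = 3). Every panel spans the same number of score units. Ptgds shows 4 arrays at 0.401 or above, the 3 green soybean arrays and yellow soybean array 3, and 5 arrays at 0.116 or below, while the diets overlap in every other panel except for Ptges2, where green soybean lies above control.

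The other enzyme of prostaglandin D2 synthesis did not follow Ptgds. Hpgds encodes the haematopoietic D synthase, which in brain is known from microglia and in other tissues from mast cells and other immune cells. Its scores were -0.220, -0.334 and -0.207 on the control arrays, -0.0930, -0.206 and -0.298 on the yellow soybean arrays and -0.198, -0.248 and -0.348 on the green soybean arrays. All 3 diets overlapped, and yellow soybean array 3, the highest for Ptgds, was the third lowest for Hpgds. The green minus control difference for Hpgds was -0.0111 (95% interval -0.155 to 0.133, limma adjusted p = 0.968). Without green soybean 3 it was 0.0308. The yellow minus control difference was 0.0545 (95% interval -0.0896 to 0.199, limma adjusted p = 1.00).

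Ptgdr, the receptor through which prostaglandin D2 raises cyclic AMP, had its highest and its lowest score within the same diet. Its scores were -0.273, -0.179 and -0.615 on the green soybean arrays, -0.597, -0.402 and -0.330 on the control arrays, and -0.463, -0.486 and -0.606 on the yellow soybean arrays. Green soybean 1 and 2 were the highest of all 9 arrays and green soybean 3 the lowest, so the diets overlapped. The green minus control difference was 0.0873 (95% interval -0.139 to 0.313, limma adjusted p = 0.817), and it was 0.217 without green soybean 3 (limma adjusted p = 0.605). Without green soybean 2 it was -0.00128. Against the yellow soybean diet, green soybean was 0.163 higher (95% interval -0.0631 to 0.389, limma adjusted p = 0.772), or 0.293 without green soybean 3.

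Ptgs2, the inducible cyclooxygenase that feeds all terminal synthases, was highest on a yellow soybean array and lowest on a green soybean array. The control arrays had Ptgs2 scores of 0.871, 0.984 and 1.09, the yellow soybean arrays 1.10, 0.966 and 1.21, and the green soybean arrays 0.925, 1.07 and 0.783. All 3 pairs of diets overlapped. Green minus control for Ptgs2 was -0.0554 (95% interval -0.244 to 0.133, limma adjusted p = 0.865), or 0.0170 without green soybean 3. On the yellow soybean diet Ptgs2 was 0.110 higher than on the control diet (95% interval -0.0780 to 0.299, limma adjusted p = 1.00). Green minus yellow gave -0.166 (95% interval -0.354 to 0.0226, limma adjusted p = 0.731), or -0.0933 without green soybean 3.

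Of the synthases of prostaglandin E2, Ptges2 was the only member besides Ptgds whose green soybean arrays all lay above the controls. Ptges2 encodes the membrane-associated synthase 2, a constitutively made protein. Its scores were 0.204, 0.195 and 0.193 on the green soybean arrays, 0.0567, 0.0558 and 0.0913 on the control arrays, and -0.0618, 0.0472 and 0.205 on the yellow soybean arrays. The green soybean arrays had an SD of 0.00598 (n = 3), and yellow soybean 3 was again the highest array of all. The green minus control difference for Ptges2 was 0.130 (SE 0.0636, 95% interval -0.00906 to 0.268) and did not pass the test (limma adjusted p = 0.543). Without green soybean 3 it was 0.132 (limma adjusted p = 0.646). The yellow minus control difference was -0.00444 (95% interval -0.143 to 0.134), with -0.0752 without yellow soybean 3 and 0.0582 without yellow soybean 1. Green minus yellow was 0.134 (95% interval -0.00462 to 0.273, limma adjusted p = 0.717), and 0.0715 to 0.205 when each array was left out in turn.

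Over the 9 arrays, Ptges2 had almost the order of Ptgds: yellow soybean 3 came first, the 3 green soybean arrays next, then the controls with control 3 leading, and yellow soybean 1 last. Their Pearson correlation was 0.920 (n = 9 arrays), a description of arrays that fall into 5 low and 4 high for Ptgds and that share their normalization. The correlation of Ptgds with the other members was -0.422 for Hpgds, -0.338 for Ptges, -0.0375 for Ptgs2, 0.00498 for Ptgdr, and -0.396 and -0.0812 for Ptges3 probe sets 10367100 and 10539649. The difference in size stayed: the range over all arrays was 0.267 for Ptges2 and 0.789 for Ptgds.

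Because Ptgds and Ptges2 moved together over the arrays, the sequence just upstream of each gene is shown. The pair was chosen after the values were seen. Each window is the 250 bases before the gene's RefSeq start in GRCm38.p6, written 5′ to 3′ on the gene's strand: chr2:25469750-25469999 on the minus strand for Ptgds and chr2:32395640-32395889 on the plus strand for Ptges2. Capitals mark every match to the E-box CANNTG.
Ptgds: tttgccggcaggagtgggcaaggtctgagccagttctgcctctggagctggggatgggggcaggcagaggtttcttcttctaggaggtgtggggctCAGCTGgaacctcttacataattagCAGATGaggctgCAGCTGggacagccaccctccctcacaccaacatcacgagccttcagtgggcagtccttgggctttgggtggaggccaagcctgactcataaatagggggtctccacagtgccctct
Ptges2: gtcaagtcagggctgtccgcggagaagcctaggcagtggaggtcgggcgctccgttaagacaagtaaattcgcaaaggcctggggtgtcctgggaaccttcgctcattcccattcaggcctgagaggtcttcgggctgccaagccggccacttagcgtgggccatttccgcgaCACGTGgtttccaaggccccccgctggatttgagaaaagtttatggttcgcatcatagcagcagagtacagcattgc

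The Ptgds window held 3 E-boxes, beginning 154, 129 and 117 bases before the start, and the Ptges2 window held 1, beginning 77 bases before it. Their core letters differed, CAGCTG and CAGATG for Ptgds against CACGTG for Ptges2. An E-box by these letters was in 66.2% of the 32851 RefSeq windows of the same length, so its presence in both is the common case. The letters of the TATA box (TATAAA), the GC box (GGGCGG), the CCAAT box (CCAAT) and the cyclic AMP response motif (TGACG), searched on both strands, were in neither window. These were in 12.4%, 32.7%, 33.8% and 17.8% of all windows. The GC content was 58.4% for Ptgds and 57.6% for Ptges2. All matches are descriptions of letters, and none overlapped another.

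Ptges, the inducible synthase of prostaglandin E2, had a range of 0.197 over the 9 arrays. It scored 0.0103, 0.154 and 0.207 on the control arrays, 0.102, 0.176 and 0.0216 on the yellow soybean arrays, and 0.103, 0.0720 and 0.118 on the green soybean arrays. The controls held both the highest and the lowest array. Green minus control for Ptges was -0.0260 (95% interval -0.162 to 0.110, limma adjusted p = 0.919), and -0.0361 without green soybean 3.

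Ptges3, the cytosolic E synthase that is also the Hsp90 co-chaperone p23, had 2 probe sets. Probe set 10367100 scored 0.404, 0.328 and 0.416 on the control arrays, 0.519, 0.414 and 0.266 on the yellow soybean arrays, and 0.384, 0.433 and 0.418 on the green soybean arrays. Probe set 10539649 scored 0.949, 0.958 and 1.11, then 1.01, 0.977 and 1.02, then 0.986, 1.01 and 0.913 in the same order of diets. The diets overlapped on both, and the probe sets disagreed on the order of the arrays, with a correlation of 0.0363 over the 9 arrays. Their green minus control differences had opposite signs, 0.0290 (limma adjusted p = 0.912) and -0.0349 (limma adjusted p = 0.870), and neither passed the test. They were 0.0257 and -0.00693 without green soybean 3. Whether both probe sets detect the transcript of Ptges3 itself or 1 detects a related sequence was not tested. Probe set 10539649 followed Ptgs2 over the arrays (r = 0.766, n = 9 arrays), and 10367100 did not (r = -0.202).

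No member passed the test in any comparison. Among the 7 member probe sets other than Ptgds, 0 had a limma adjusted p under 0.05 and 0 had an unadjusted p under 0.05 in green minus control, in yellow minus control and in green minus yellow. This is the background of the whole table too, since limma called 0% of the 21959 probe sets in each comparison. At an unadjusted p under 0.05 the table held 2134, 667 and 1559 probe sets in that order, and its smallest limma adjusted p was 0.315, 1.00 and 0.634. Of these 7 probe sets, 3 were higher and 4 lower in each comparison. Their median difference was -0.0111 for green minus control, -0.000708 for yellow minus control and -0.00223 for green minus yellow, against 0.0296, 0.0140 and 0.0147 over all tested probe sets. The intervals of the members other than Ptgds were wide beside these medians: their standard errors ran from 0.0564 to 0.104, and a p that misses the threshold does not show that the diets act alike.

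Counted by overlap, 2 of the 8 member probe sets, Ptgds and Ptges2, lay wholly above the controls on green soybean, where 13.2% of all tested probe sets did. None lay wholly below, where 2.67% of all did. On yellow soybean, 0 of the 8 lay wholly above the controls and 0 wholly below, against 6.65% and 2.65% of all. Between the soybean diets, 0 of the 8 had all green arrays above all yellow ones and 0 all below, against 7.63% and 2.92%. The comparisons share arrays, so they are not independent of each other. The rule chose Ptgds on this contrast, and nothing is read from its place in these counts.

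**Figure D2:**
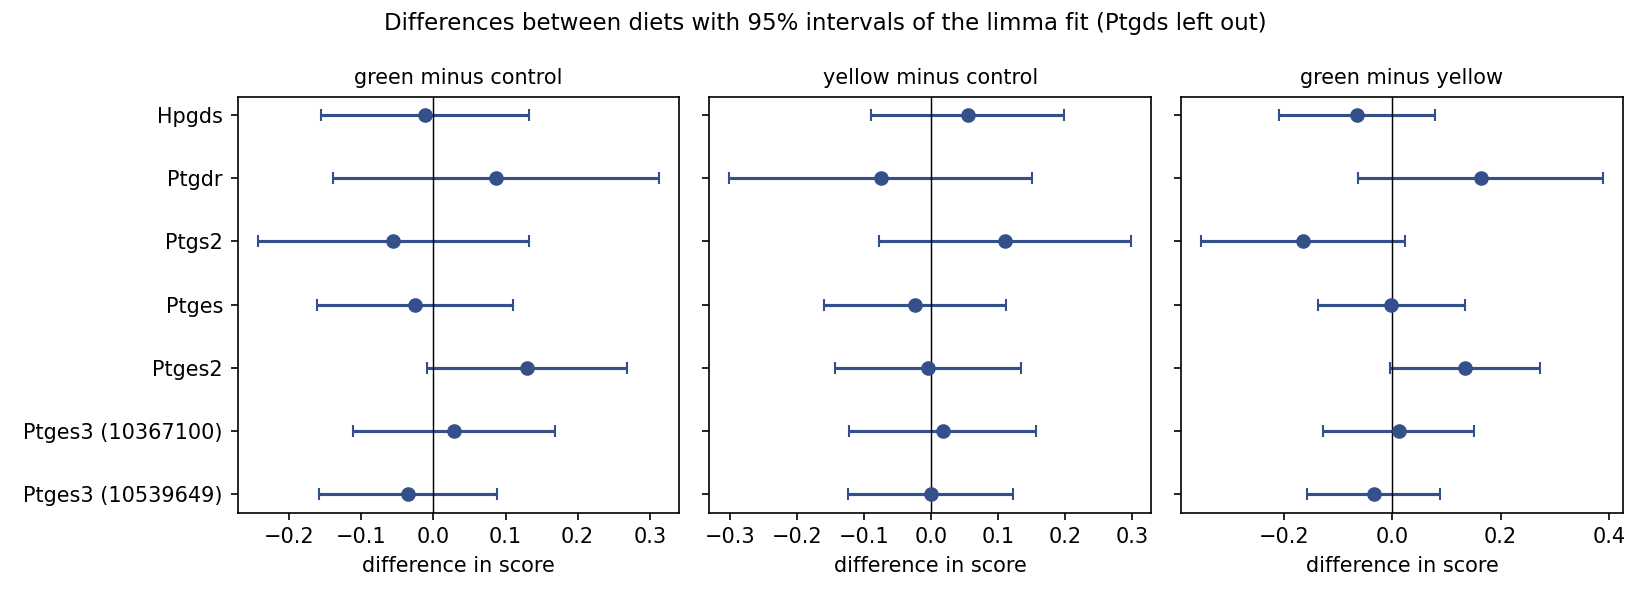
Difference between diets in score units for the 7 member probe sets other than Ptgds, for green minus control, yellow minus control and green minus yellow, with points for the limma estimate and bars for its 95% interval. Every interval crosses 0, the closest being Ptges2 with -0.00462 to 0.273 for green minus yellow. Next come Ptges2 with -0.00906 to 0.268 for green minus control and Ptgs2 with -0.354 to 0.0226 for green minus yellow.

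The 8 genes whose scores followed Ptgds most closely, by Pearson correlation over the 9 arrays, were Tubb2b (0.984), Rmnd5b (0.979), Mea1 (0.963), Pebp1 (0.959), Tmem44 (0.957), Slc13a5 (0.955), Evpl (0.954) and Mrpl30 (0.950). Tubb2b encodes a beta tubulin of developing neurons, Pebp1 the Raf kinase inhibitor protein, Slc13a5 a citrate transporter and Mrpl30 a protein of the mitochondrial ribosome. The correlations are descriptions of arrays that share their normalization. All 8 had yellow soybean 3 above their highest control. Tubb2b scored 1.33 there, above its highest control of 1.23 and within its green soybean range of 1.29 to 1.37.

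Their differences were smaller than that of Ptgds. Green minus control was 0.266 for Pebp1, 0.156 for Tubb2b, 0.126 for Rmnd5b, 0.124 for Evpl and 0.0794 for Mrpl30, against 0.569 for Ptgds. Which genes came out nearest depended on the arrays: 6 of the 8 stayed when the array medians were aligned, 5 under quantile normalization, and 2 to 6 when 1 array was left out. No oligodendrocyte, leptomeningeal or choroid plexus marker of the lists used here was among the 8. These lists held 13, 17 and 13 measured genes among 16429 with a single symbol. So few genes would rarely be among 8, and nothing is read from their absence.

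For Ptgs2 the 5 nearest genes were Hsph1 (0.969), Atf2 (0.957), Mir412 (0.956), Hnrnpc (0.952) and Vxn (0.944). Hsph1 encodes a large heat shock protein and Atf2 a transcription factor that binds cyclic AMP response elements. Without green soybean 3, 0 of these 5 remained among the nearest 5, and 1 remained without yellow soybean 1, yellow soybean 3 or green soybean 1. The correlation of each of these 5 genes with Ptgs2 was still at least 0.929 without green soybean 3, so it was their rank among all genes that changed.

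The other genes of the pathway were taken from lists by role. In green minus control, 10 of 14 measured genes of arachidonate release were higher and their median difference was 0.0385, where 65.0% of all tested probe sets were higher with a median of 0.0296. Without green soybean 3, 13 of 14 were higher (median 0.0457), where 70.5% of all were with a median of 0.0371. Of 6 terminal synthases of other prostanoids, 4 were higher with and without that array, with medians of 0.0233 and 0.0240. In the list of 9 prostanoid receptor genes, which holds Ptgfrn, a negative regulator of the F2 alpha receptor, all 9 were higher, with a median of 0.0887. Without green soybean 3, 8 of the 9 were higher (median 0.0590) and Ptger4, an E2 receptor, was at -0.0416. No probe set of these lists passed the test, and 0, 1 and 3 of them had an unadjusted p under 0.05 in turn, as 9.72% of all tested probe sets did.

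The receptor genes with the largest green minus control difference were Ptger2, Ptgdr2 and Ptgir. Ptger2, an E2 receptor that raises cyclic AMP, scored -0.575, -0.699 and -0.614 on the control arrays and -0.404, -0.573 and -0.321 on the green soybean arrays, a difference of 0.197 (SE 0.0712, limma adjusted p = 0.461). Ptgdr2, the other receptor of prostaglandin D2, scored -0.265, -0.339 and -0.405 on controls and -0.132, -0.252 and -0.101 on green soybean, a difference of 0.174 (SE 0.0631, limma adjusted p = 0.461). Ptgir, the prostacyclin receptor, differed by 0.151 (SE 0.0581, limma adjusted p = 0.471). The differences without green soybean 3 were 0.141 for Ptger2, 0.144 for Ptgdr2 and 0.130 for Ptgir. Green soybean lay wholly above control for Ptger2 and Ptgdr2, as it did for 13.2% of all tested probe sets. For Ptger2 the lowest green soybean array, -0.573, was close to the highest control, -0.575. Ptgis, the synthase of prostacyclin, was the synthase outside the member genes with the largest difference, 0.153 (SE 0.0618, limma adjusted p = 0.484), or 0.183 without green soybean 3.

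Of 8 genes of prostaglandin transport and breakdown, 7 were higher on green soybean than on control (median 0.0638), or 6 without green soybean 3 (median 0.0551). Of 12 genes of the lipoxygenase branch, which takes arachidonic acid to leukotrienes, 11 were higher with and without that array (medians 0.0474 and 0.0467). Of 12 lipocalins other than Ptgds, 10 were higher (median 0.0778), or 9 without green soybean 3 (median 0.0649). All 12 were higher on green than on yellow soybean (median 0.0985, or 0.0719 without green soybean 3). Among all probe sets the corresponding shares were 65.0% and 58.0%. Under yellow minus control the medians were 0.0202 for arachidonate release, 0.0301 for receptors, 0.0285 for transport and breakdown, 0.0133 for lipoxygenases and -0.0125 for lipocalins, against 0.0140 over all.

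Single genes of these lists are given for both soybean diets, and none passed the test. Pla2g10, a secreted phospholipase, was 0.131 higher on green soybean than on control, or 0.196 without green soybean 3, and 0.101 higher on yellow soybean, or 0.0174 without yellow soybean 3. Ptgr1, which reduces prostaglandins in their breakdown, scored -0.539, -0.486 and -0.502 on the control arrays and -0.422, -0.414 and -0.404 on the green soybean arrays. Its green soybean arrays were all above the controls, as for 13.2% of all tested probe sets. The Ptgr1 difference was 0.0954 on average (SE 0.0578, limma adjusted p = 0.621), or 0.0908 without green soybean 3. Slco1a4, an organic anion transporter of the blood-brain barrier, was 0.120 higher on green soybean (SE 0.0697, limma adjusted p = 0.604), or 0.0817 without green soybean 3 and 0.0779 without control 2. Akr1c18, an aldo-keto reductase, was lower than control on both diets, with differences of -0.0825 on green and -0.125 on yellow soybean, the first -0.0708 without green soybean 3 and the second -0.0760 without yellow soybean 2.

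The direction of some of these small shifts depended on how the arrays were scaled. With array medians aligned, 39.4% of all probe sets were higher in green minus control, and 50.8% were under quantile normalization, in place of 65.0%. Receptors then had 7 of 9 genes higher under either scaling, transport and breakdown 5 of 8, the lipoxygenase branch 6 of 12, arachidonate release 5 and 9 of 14, and the other terminal synthases 1 and 3 of 6. The lipocalins had 9 and 10 of 12. With array medians aligned, the median turned negative for arachidonate release (-0.0116), the other terminal synthases (-0.0268) and the lipoxygenase branch (-0.00272). The median stayed positive for receptors (0.0386), transport and breakdown (0.0137) and lipocalins (0.0277). Under quantile normalization the medians of all these lists stayed positive.

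**Figure D3:**
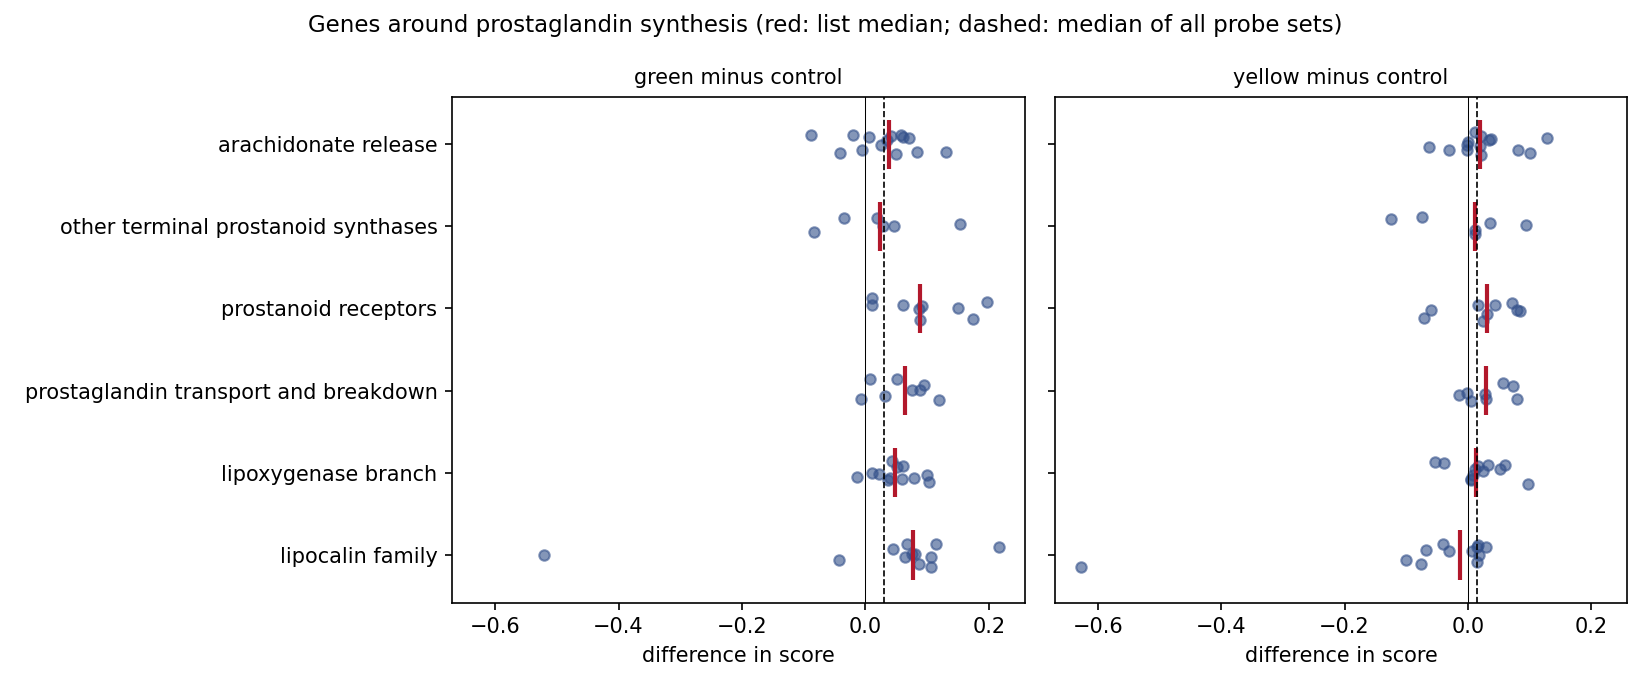
Green minus control difference in score units of each gene in the lists of the prostaglandin pathway and of related genes, 1 dot per gene, with a red mark for the list median and a dashed line for the median of all tested probe sets, 0.0296. All 9 receptor dots lie above 0, and Lcn2 at -0.521 is the lowest dot of the lipocalins.

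Within the lipocalins, Lcn2 went the other way from Ptgds. Lcn2 encodes an iron-carrying lipocalin that rises in inflammation. It scored 0.125, -0.889 and 0.764 on the control arrays and -0.585, -0.618 and -0.360 on the green soybean arrays, and -0.701, -0.675 and -0.507 on the yellow soybean arrays. The controls spread over more than the soybean arrays did, with control 2 below every soybean array and controls 1 and 3 above. The Lcn2 difference of -0.521 (SE 0.289, limma adjusted p = 0.578) was -0.139 without control 3, -0.965 without control 2 and -0.602 without green soybean 3. Lcn12, which lies next to Ptgds in the RefSeq order of protein-coding genes, was 0.216 higher on green soybean than on control (SE 0.0842, limma adjusted p = 0.471), and 0.138 higher without green soybean 3.

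Lists of cell types that make Ptgds were read beside it. For 17 leptomeningeal markers, the mean on each array relative to the control mean was 0.214, 0.0417 and 0.187 on green soybean, 0.0760, -0.0699 and -0.00607 on control, and 0.0385, 0.0723 and 0.0723 on yellow soybean. Green soybean 1 and 3 were the highest, while green soybean 2 lay among the controls and yellow soybean 3 equalled yellow soybean 2. Of the 17 genes, 14 were higher in green minus control (median 0.147, or 0.143 without green soybean 3), 7 had an unadjusted p under 0.05, where 9.72% of all tested probe sets did, and 0 were called. Green soybean lay wholly above control for 3 of the 17, a share near the 13.2% of all probe sets. Leaving out green soybean 3, 15 of the 17 were higher. Fmod, which encodes a collagen-binding proteoglycan, differed by 0.314 (limma adjusted p = 0.440) and Slc13a4, a sulfate transporter, by 0.297 (limma adjusted p = 0.440), or 0.297 and 0.264 without green soybean 3. Dcn, the proteoglycan decorin, differed by 0.298, and leaving out 1 array moved this from 0.0578, without green soybean 3, to 0.431, without control 3. With array medians aligned, 13 of the 17 were higher, and 14 under quantile normalization. The part of these markers in the Ptgds difference was not tested.

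None of the leptomeningeal, choroid plexus and oligodendrocyte lists had the full array order of Ptgds. Over the 9 arrays, the list mean correlated with Ptgds at 0.699 for leptomeninges, 0.186 for choroid plexus and -0.447 for oligodendrocytes. These correlations are descriptions. The 13 measured choroid plexus markers were at 0.373, -0.0288 and 0.0416 on green soybean, 0.160, -0.133 and -0.0267 on control and 0.164, 0.0622 and -0.0407 on yellow soybean, so their mean was high on green soybean 1 and low on yellow soybean 3. Of these, 10 were higher in green minus control, with a median of 0.0880, and 9 were under either scaling. All 13 were higher when green soybean 3 was left out (median 0.0666). Ttr, which encodes the transthyretin of the choroid plexus, differed by 0.497, and leaving out 1 array moved this from 0.0946, without green soybean 1, to 0.812, without control 1; it was 0.617 without green soybean 3. The 13 oligodendrocyte markers were at 0.0604, 0.0980 and -0.144 on green soybean, -0.0982, 0.0902 and 0.00798 on control, and 0.172, 0.0167 and -0.0919 on yellow soybean, with 6 higher and 7 lower in green minus control. Green soybean 3 was their lowest array, and without it all 13 were higher, with a median of 0.0842 in place of -0.00225. With all arrays, 4 and 5 of the 13 were higher under aligned medians and quantile normalization. The part of these markers in the Ptgds difference was not tested either.

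**Figure D4:**
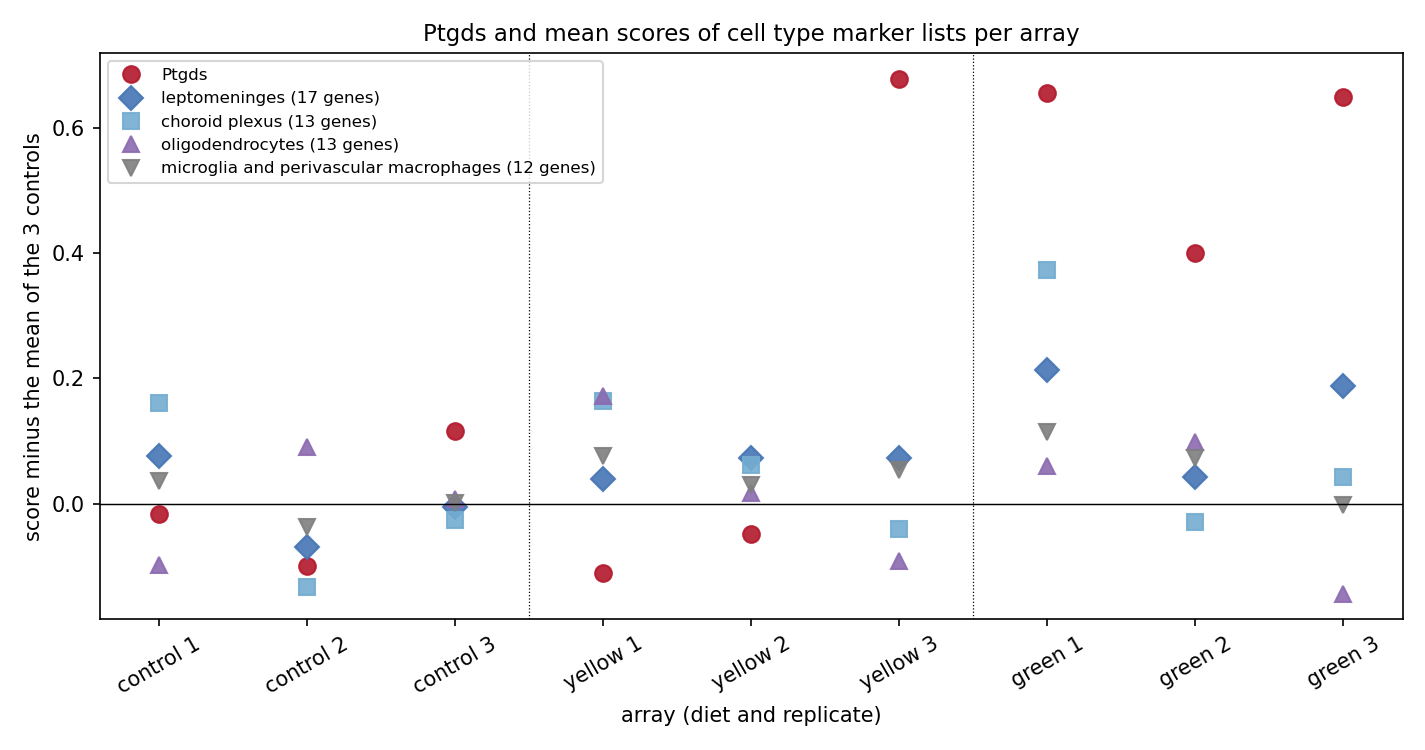
Score minus the control mean on each array for Ptgds and for the mean of the leptomeningeal, choroid plexus, oligodendrocyte and microglial marker lists, by diet, with 1 point per array. Yellow soybean 3 is at 0.679 for Ptgds and at 0.0723, -0.0407 and -0.0919 for the first 3 lists in turn.

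Microglia and perivascular macrophages, the cells in which Hpgds is known, had 10 of 12 markers higher in green minus control (median 0.0417), where 65.0% of all probe sets were higher. With array medians aligned 6 of the 12 were higher and the median was -0.00841, with quantile normalization 10 were (median 0.0289), and without green soybean 3 there were 11 (median 0.105). Hpgds itself differed by -0.0111. Of 8 mast cell markers, 3 had a value on every array and 2 of these were higher, with and without green soybean 3, while Cpa3, Mcpt4, Cma1, Fcer1a and Ms4a2 were listed at 0 on at least 1 array. Of 13 endothelial and pericyte markers 9 were higher (median 0.0160), 5 under either scaling, and 10 without green soybean 3 (median 0.101). Of 10 astrocyte markers 4 were higher (median -0.0122), 2 and 4 under the 2 scalings, and 6 without green soybean 3 (median 0.0320). Of 2 blood markers, 1 was higher in each of these settings.

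Ptgs2 is regulated with neuronal activity. Of 19 activity-regulated genes 16 were lower in green minus control and 3 higher (median -0.141), where 65.0% of all tested probe sets were higher. On this list 8 were at an unadjusted p under 0.05, where 9.72% of all were, and 0 were called. Green soybean 3 was the lowest array of this list, at -0.304 relative to the control mean. The diets overlapped, with control 1 at -0.195 and yellow soybean 2 at -0.203, below green soybean 1 at -0.0913 and 2 at -0.115. Without green soybean 3, 6 of the 19 were higher (median -0.105), where 70.5% of all were. Under aligned medians and quantile normalization 2 and 3 were higher. Nr4a1, an orphan nuclear receptor, differed by -0.532 (limma adjusted p = 0.440), or -0.402 without green soybean 3, and Ptgs2 by -0.0554. Over the 9 arrays, Ptgs2 correlated at 0.692 with the mean of the activity-regulated list. The correlation was -0.105 with the inflammation list and 0.879 with the list of Hsp90 and its co-chaperones. These are descriptions of arrays that share their normalization. Of 14 inflammation genes, 10 were higher (median 0.0508), 7 and 8 under the 2 scalings, and 12 without green soybean 3 (median 0.0607). For the list of Hsp90 and its co-chaperones, to which Ptges3 belongs by function, 7 of 14 were higher and 7 lower, with 2 and 6 higher under the 2 scalings and 6 without green soybean 3.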

How the data were processed

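Per the labels' protocols, hippocampal RNA was purified on RNeasy columns, made into biotinylated cRNA and hybridised to 1-colour Affymetrix arrays. Values were deposited as normalized scores from the SuperNORM data service, as the labels name it. A deposited p-value stands beside each probe set, its test not given in the sources used here; a deposited file of normalization parameters was not used. An exact 0 was read as no value. Of 34760 probe sets, 21640 had 1 gene symbol and 1321 several; 6573 control-type probe sets and 6228 with an exact 0 were left out, leaving 21959. Exact zeros made up 12.6% to 16.1% of an array. The 1345 centred probe sets (control mean 0 within 1e-06) were those with a deposited p-value up to 0.00497, the smallest of the others being 0.00501. A further 9 value columns, under names without a matching label, were left aside.

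One model over 9 arrays and 3 diets was fitted by lmFit, contrasts.fit and eBayes without a trend (R 4.3.3, limma 3.58.1, 2-sided), with Benjamini-Hochberg adjustment over all tested probe sets and calls at an adjusted p under 0.05. The median standard error of a difference was 0.0632, and the number of arrays limits the precision. The fit was tested on simulated data. Members, gene lists and tests were chosen with earlier results of these data known. Named genes were all members, the 8 nearest Ptgds and the 5 nearest Ptgs2 by correlation, and some, not all, of the largest differences of the lists. For several lists no difference of a single gene was given. Other names were chosen after their values were seen. A list gene with several probe sets took their mean, and lists were described by counts and medians. Upstream sequences are RefSeq's, GRCm38.p6, and all 8 genes matched. Alternatives were aligned medians, quantile normalization, an intensity trend, a filter on dim probe sets, centred probe sets left out, zeros kept, only the 6 arrays compared, array weights, a replicate block, and each array left out.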

Additional observations from a re-analysis of the deposited data

How the results depend on the processing

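The differences reported for Ptgds kept their sign under all alternatives that gave a value except that yellow minus control became negative without yellow soybean 3. No member other than Ptgds was called under any of them. In green minus control, 1 of the 7 other probe sets had an unadjusted limma p under 0.05 in some alternatives. These were only the 6 arrays compared, array weights, and leaving out yellow soybean 1, yellow soybean 3 or green soybean 3. Green minus yellow also had 1 without green soybean 3. Of the alternative values for the counts of calls and for Ptgds, 153 stayed at the same count or moved by less than 1 SD, and 6 did not. For the other member probe sets, 341 kept their direction and side of the threshold, and 25 reversed direction. Against 0 calls, limma called 2, 17 and 13 probe sets in green minus control, yellow minus control and green minus yellow when exact zeros were kept as values, and 1 in green minus control with array weights. Leaving out 1 array gave 0 to 1, 0 to 0 and 0 to 1 calls in turn, the 1 being without green soybean 3. Filtering dim probe sets gave no value for some members, and leaving out centred ones gave none for Ptgds.

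With array weights, green minus control became 0.0116 for Ptgs2 and 0.0276 for Hpgds, and yellow minus control 0.00978 for Ptges3 probe set 10539649. With array medians aligned, Ptges3 probe set 10367100 became -0.0211, -0.0116 and -0.00954 in the 3 comparisons. Leaving out each array in turn, green minus control ran from -0.129 to 0.0170 for Ptgs2, -0.00128 to 0.217 for Ptgdr, -0.0827 to 0.0156 for Ptges, -0.0627 to 0.0157 for Ptges3 probe set 10539649 and -0.0510 to 0.0308 for Hpgds. Yellow minus control ran from -0.0422 to 0.0841 for Ptges3 probe set 10367100, -0.0285 to 0.04996 for 10539649, -0.0752 to 0.0582 for Ptges2 and -0.0805 to 0.0178 for Ptges. Green minus yellow ran from -0.0551 to 0.0712 for Ptges3 probe set 10367100 and -0.0415 to 0.0359 for Ptges. The cause was not tested. No signal over background is given with the scores, so what dim signal limits was not assessed.

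No label ties a replicate number to an animal, litter or cage, and the main model did not pair the arrays. Deviations from the diet means correlated between -0.0817 and 0.165 for same-numbered arrays and between -0.169 and 0.186 for differently numbered ones. With 3 arrays per diet these values cannot decide whether the numbers pair the arrays. With the replicate block, limma called 0 probe sets in each comparison, 2157, 688 and 1604 had an unadjusted p under 0.05, and the Ptgds differences were 0.569, 0.173 and 0.396 as without it.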

Other observations

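The protein-coding genes on either side of Ptgds in RefSeq order, chosen after their values were seen and not tested, had these green minus control differences. On one side Lcn12 was at 0.216, C8g at 0.106, Fbxw5 at -0.0230, Traf2 at 0.127 and Edf1 at 0.00956. On the other side Clic3 was at 0.0745, Paxx at 0.117, Abca2 at -0.0715, Fut7 at -0.0268 and Npdc1 at 0.0365, all under the 0.569 of Ptgds. C8g, a lipocalin of the complement membrane attack complex, had the highest correlation with Ptgds among these 10 genes (0.832 over the 9 arrays), given as a description.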
